A study of Mus musculus with 46 samples.

Results

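Polyamine metabolism was followed here through 10 genes, chosen by symbol: Odc1, Amd1, Srm and Sms for synthesis, Oaz1, Azin1 and Azin2 for control of ornithine decarboxylase, and Sat1, Smox and Paox for breakdown. All 10 were found among the 17242 genes of the 12-week RNA table and among the 18531 genes of the 18-month table. Poly(A) RNA of kidney and liver was sequenced as 150 bp read pairs on a DNBSEQ instrument in 46 libraries. The mice were wild-type C57BL6 animals that all had surgery at 8 weeks of age and were sampled at 12 weeks or at 18 months. Castrated males (casM) contributed 6 libraries per tissue at 12 weeks and 5 at 18 months. Sham-operated females (shamF) and sham-operated males (shamM) contributed 3 libraries each per tissue and age. Serum, kidney and liver metabolites of the same 3 arms were also profiled, in a study of castration and aging.

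Polyamines are small positively charged molecules that bind nucleic acids and are needed for growth and translation. Ornithine decarboxylase, encoded by Odc1, makes putrescine from ornithine, and aminopropyl groups supplied by Amd1 are then added to give spermidine and spermine. Antizyme, encoded by Oaz1, binds ornithine decarboxylase and delivers it to the proteasome, and the antizyme inhibitors encoded by Azin1 and Azin2 bind antizyme instead. In mouse kidney, ornithine decarboxylase of the proximal tubule is a known target of androgens.

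Levels are group means: FPKM (fragment counts corrected for gene length and sequencing depth) at 12 weeks and the authors' normalised expression units at 18 months, where the unit is not named. The deposited tables hold no value per library, so group means carry no SD and overlap between libraries could not be examined. A gene is called where the adjusted p in the authors' deposited table is under 0.05, and differences of means are on the log2(mean + 1) scale. At 12 weeks each gene is listed for only 1 of the 3 comparisons, and why is not stated, so a 12-week gene with no call may simply not be listed. Castrated males and females are both compared with the same sham males, so their differences from sham males are not independent. At 18 months the median gene of castrated males lay above that of sham males by 0.13 in kidney and 0.12 in liver, and the median gene of females by 0.11 in kidney and 0.14 in liver. The authors' 18-month folds do not carry this shift, and they are given with the standard error that their p implies. These folds are on the log2 scale throughout, so positive values are rises and negative values are falls. Markers fitted the labels: Y-linked genes summed to at most 0.293 in females and at least 58.8 in males, and 5 hepatocyte markers summed to at most 175 in kidney groups and at least 17705 in liver groups. Alb, a hepatocyte marker, nevertheless stood at 0.01 FPKM, the smallest value in the 12-week table, in all 12-week liver groups, and Kap, an androgen-regulated kidney gene, did so in the 12-week kidney of sham males. Libraries are bulk tissue, so fewer cells of a type and less RNA per cell cannot be told apart.

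Odc1, Amd1, Oaz1 and Sat1 carry most of the results, so the 250 bases before their RefSeq transcript starts (GRCm38.p6) are shown in lower case, 5′ to 3′ on the gene's own strand. Capitals mark every match, on either strand, to 5 motifs: one arm of an androgen response element (AGAACA), the E-box (CACGTG), the TATA box (TATAAA), the GC box (GGGCGG) and the CCAAT box. Odc1 lies at chr12:17544794-17551505 on the plus strand (mm10), Amd1 at chr10:40287458-40302186 on the minus strand, Oaz1 at chr10:80826656-80829290 on the plus strand and Sat1 at chrX:155213132-155216449 on the minus strand. The Odc1 window follows the RefSeq start and reaches past the GENCODE gene start.
Odc1, chr12:17544623-17544872, plus strand: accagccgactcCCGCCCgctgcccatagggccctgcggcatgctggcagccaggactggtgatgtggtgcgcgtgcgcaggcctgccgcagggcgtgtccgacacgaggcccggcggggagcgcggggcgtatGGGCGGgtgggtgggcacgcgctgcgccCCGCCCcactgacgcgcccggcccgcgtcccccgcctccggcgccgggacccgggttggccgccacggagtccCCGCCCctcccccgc
Amd1, chr10:40302189-40302438, minus strand: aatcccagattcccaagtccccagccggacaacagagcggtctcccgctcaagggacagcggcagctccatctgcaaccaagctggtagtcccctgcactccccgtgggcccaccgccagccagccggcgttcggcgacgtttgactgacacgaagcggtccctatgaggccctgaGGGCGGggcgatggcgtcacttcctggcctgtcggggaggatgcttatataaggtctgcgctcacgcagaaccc
Oaz1, chr10:80826406-80826655, plus strand: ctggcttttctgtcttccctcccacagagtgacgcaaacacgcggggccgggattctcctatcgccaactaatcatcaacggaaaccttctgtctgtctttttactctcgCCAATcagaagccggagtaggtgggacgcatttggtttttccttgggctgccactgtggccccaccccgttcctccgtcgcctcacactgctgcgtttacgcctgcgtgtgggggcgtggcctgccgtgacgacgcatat
Sat1, chrX:155216450-155216699, minus strand: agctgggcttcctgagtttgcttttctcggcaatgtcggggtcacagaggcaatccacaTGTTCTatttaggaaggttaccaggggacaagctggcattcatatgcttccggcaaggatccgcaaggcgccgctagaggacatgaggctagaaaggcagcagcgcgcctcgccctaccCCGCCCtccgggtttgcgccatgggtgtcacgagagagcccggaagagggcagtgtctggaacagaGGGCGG

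The Odc1 window holds 4 GC boxes and has a GC content of 80%, against a median of 52.4% over 32851 windows of this length. A single GC box is in the Amd1 window and 1 CCAAT is in the Oaz1 window. The Sat1 window holds 2 GC boxes and 1 androgen element arm, which is on the opposite strand, 191 bases before the start. Among all windows, 16.1% hold the androgen element arm, 6.02% the E-box, 12.4% the TATA box, 32.7% the GC box and 33.8% the CCAAT box, and none of the matches shown overlap each other. These matches describe letters in a window and say nothing of binding. The other genes lie on mm10 at chr4:148591503-148594993 (Srm), chrX:157443855-157492287 (Sms), chr15:38487427-38519266 (Azin1), chr4:128930233-128962442 (Azin2), chr2:131491496-131525922 (Smox) and chr7:140115799-140137224 (Paox).

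Odc1 RNA was much lower in kidneys of castrated males than in those of sham males, at both ages, and the level in females was close to that of castrated males. At 12 weeks kidney Odc1 was 23.5 FPKM in castrated males, 26.0 FPKM in sham females and 177 FPKM in sham males. At 18 months it was 180.5 expression units in castrated males, 188 in sham females and 499 in sham males. Both ages therefore put sham males highest.
Castrated males had 13.3% of the sham male mean at 12 weeks and 36.2% at 18 months, a pair of shares that come from separately processed tables and were not tested against each other. In kidney Odc1 fell by 2.86 after castration at 12 weeks, with an adjusted p of 0.000476 in the authors' deposited table. That value is the lowest adjusted p in the 12-week kidney table, and 1085 genes of the castration comparison share it. Its difference ranked 24 from the lowest among the 8488 genes that reached a mean of 5 in either arm.
At 18 months the authors' deposited DESeq2 fold for castration was -1.62 with an implied SE of 0.20 and an adjusted p of 1.46e-14, and its difference of means ranked 55 of 9437. In females against sham males the 18-month fold was -1.55 with an implied SE of 0.23 and an adjusted p of 4.18e-10 in the same deposited DESeq2 table. At 12 weeks the sex difference was -2.72 and ranked 36 of 8591, but no test of it is listed.
Castrated males and females differed at 18 months by -0.07 in the authors' DESeq2 table, with an implied 95% interval of -0.29 to 0.15 and an adjusted p of 0.867. That interval lies within 0.29 of no difference on the log2 scale.

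Liver held far less Odc1 than kidney and no listed comparison of the arms was called there. In 12-week liver the differences from sham males, -0.24 for castration and -0.33 for sex, are not listed, so they have no test. At 12 weeks liver Odc1 was 7.48 FPKM in castrated males, 6.99 FPKM in sham females and 9.01 FPKM in sham males. The 18-month liver means were 31.9 in castrated males, 39.3 in sham females and 32.3 in sham males. The authors' DESeq2 fold for castration in 18-month liver was -0.15, with an implied 95% interval of -0.75 to 0.45 and an adjusted p of 0.983. Whether the castration difference of kidney differs from that of liver was not tested.
Proximal tubule markers were present in every kidney group, with 5 of 5 at a mean of at least 1. Their sum at 12 weeks was 1976 FPKM in castrated males, 1630 in sham females and 1988 in sham males. At 18 months the sum was 2742 in castrated males, 2122 in sham females and 3233 in sham males. The 18-month sum was carried mostly by Slc34a1, the renal phosphate transporter, at 2196 in castrated males, 1536 in sham females and 2692 in sham males. The single markers did not share 1 order: Lrp2, Cubn and Slc5a12 were higher in females than in sham males at 18 months, with Lrp2 at 219 in females and 171 in sham males. Markers of other kidney segments, 6 of 6 at a mean of at least 1, summed to 2530 in castrated males, 3791 in sham females and 1693 in sham males at 18 months, and to between 1034 and 1091 FPKM at 12 weeks. In no liver group did the proximal tubule sum exceed 0.992. The part of these markers in the Odc1 difference was not tested.

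**Figure D1:**
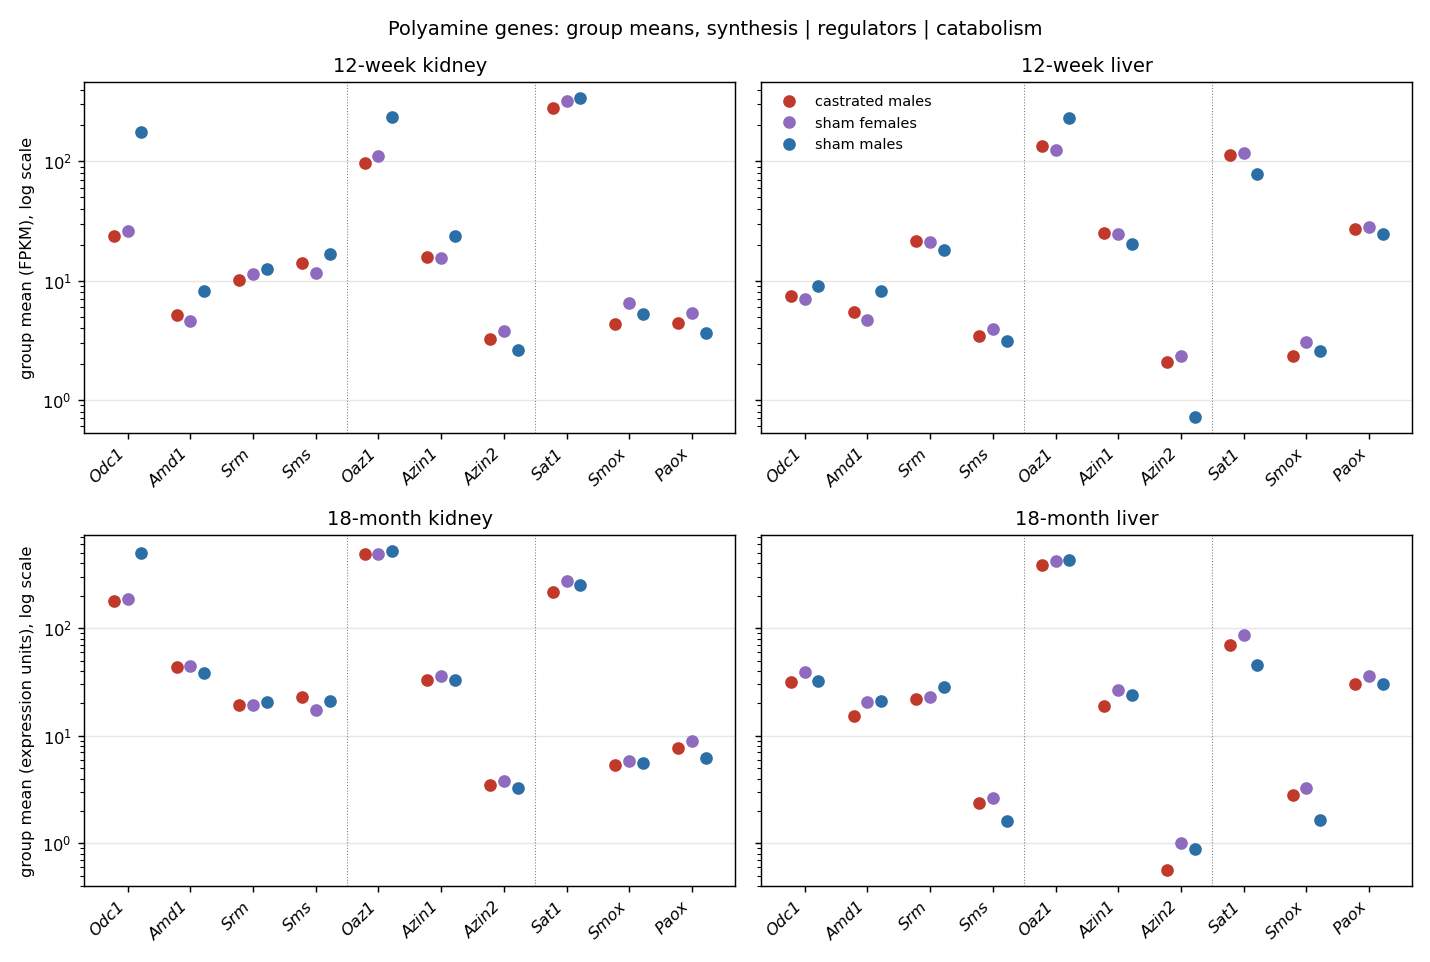
Group means of the 10 genes in castrated males, sham females and sham males, in 12-week kidney and liver (FPKM) and 18-month kidney and liver (expression units), on a log axis. Each point is 1 group mean with no error. Odc1 in kidney stands apart in sham males, at 177 FPKM at 12 weeks and 499 units at 18 months.

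Amd1 supplies the aminopropyl donor by decarboxylating S-adenosylmethionine. It was lower outside sham males at 12 weeks in both tissues. Kidney Amd1 was 5.19 FPKM in castrated males, 4.61 FPKM in sham females and 8.14 FPKM in sham males. Of these differences the sex one is listed and called, at -0.70 with an adjusted p of 0.000476 in the authors' deposited table. Liver Amd1 was 5.44 FPKM in castrated males, 4.66 FPKM in sham females and 8.17 FPKM in sham males. Liver Amd1 fell by 0.51 after castration, with an adjusted p of 0.00223 in the authors' deposited table.
The 18-month kidney did not show the same order: Amd1 was 43.9 in castrated males, 44.2 in sham females and 38.2 in sham males, with no call. In 18-month liver it was 15.4 in castrated males, 20.8 in sham females and 21.3 in sham males. The authors' DESeq2 fold for castration there was -0.63 with an implied SE of 0.26 and an adjusted p of 0.335, which misses the threshold. Amd2, a near-identical copy, was at most 0.035 FPKM at 12 weeks and at most 0.253 units at 18 months.

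Srm, spermidine synthase, was not called in any listed comparison. At 12 weeks Srm is listed for castrated males against females alone, in both tissues, so castration and sex have no test there. Its 12-week kidney means were 10.05 FPKM in castrated males, 11.3 in sham females and 12.5 in sham males. In 18-month kidney they were 19.4, 19.5 and 20.6 for castrated males, females and sham males. Liver means at 12 weeks were 21.4 FPKM in castrated males, 21.3 in sham females and 18.0 in sham males, and at 18 months 21.8, 22.9 and 28.2 for castrated males, females and sham males. The widest gap, castrated against sham males in 18-month liver, had a fold of -0.51 with an implied 95% interval of -1.18 to 0.17 in the authors' DESeq2 table.
Sms, spermine synthase, was lowest in female kidneys. At 18 months kidney Sms was 22.9 in castrated males, 17.4 in sham females and 21.3 in sham males. Females were lower than sham males by a fold of -0.42, with an implied SE of 0.11 and an adjusted p of 0.0012 in the authors' DESeq2 table. Castrated males exceeded females by 0.38, with an implied SE of 0.09 and an adjusted p of 0.000581 in the same DESeq2 table. Unlike Odc1, Sms thus placed castrated males beside sham males, at a castration fold of -0.05 with an implied 95% interval of -0.22 to 0.12.
The 12-week kidney had 14.1 FPKM in castrated males, 11.5 in sham females and 16.6 in sham males. The castration difference there was not called, with an adjusted p of 0.440 in the authors' deposited table. Differences of females from either male arm are not listed for 12-week kidney Sms, so they have no test. Liver Sms was low, at 3.41 FPKM in castrated males, 3.91 in sham females and 3.11 in sham males at 12 weeks.

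Oaz1, the antizyme, was lower outside sham males in both tissues at 12 weeks. Kidney Oaz1 was 97.5 FPKM in castrated males, 111 FPKM in sham females and 236 FPKM in sham males. The sex difference of -1.08 is called, with an adjusted p of 0.000476 in the authors' deposited table, and the castration difference of -1.27 is not listed. Liver Oaz1 was 135 FPKM in castrated males, 124 FPKM in sham females and 230.2 FPKM in sham males. Liver Oaz1 fell by 0.76 after castration, with an adjusted p of 0.00286 in the authors' deposited table.
The 18-month arms lay much nearer to each other. Kidney Oaz1 was 494 in castrated males, 487 in sham females and 518 in sham males. The castration fold was -0.21 with an implied SE of 0.06 and an adjusted p of 0.00413 in the authors' DESeq2 table, a call on a difference of means of only -0.07. Liver Oaz1 at 18 months was 387 in castrated males, 424 in sham females and 426 in sham males, with no call.
Per length, 12-week kidney Odc1 amounted to 0.242 of Oaz1 in castrated males, 0.233 in sham females and 0.748 in sham males.

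Azin1 encodes an antizyme inhibitor. In 12-week kidney it was 15.6 FPKM in castrated males, 15.5 FPKM in sham females and 23.9 FPKM in sham males. In females Azin1 fell by 0.59 relative to sham males, with an adjusted p of 0.000476 in the authors' deposited table, and castration is not listed. In 12-week liver the order was the other way, at 25.2 FPKM in castrated males, 24.4 in sham females and 20.4 in sham males. The castration difference in liver was 0.29 and was not called, with an adjusted p of 0.190 in the authors' deposited table. None of the 18-month comparisons of Azin1 was called, with kidney means of 33.1 in castrated males, 36.3 in sham females and 32.9 in sham males.
Azin2, another antizyme inhibitor, was the lowest of the 10 genes in every 12-week group. Its 12-week liver mean was 2.09 FPKM in castrated males, 2.32 in sham females and 0.716 in sham males. In castrated males it rose by 0.85 in liver, with an adjusted p of 0.000856 in the authors' deposited table, and by 1.43 where 0.1 in place of 1 was added to the means. At 18 months the liver means were 0.562 in castrated males, 1.01 in sham females and 0.893 in sham males, and the castration fold of -0.77 had an implied SE of 0.52 and an adjusted p of 0.773 in the authors' DESeq2 table.

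Sat1 encodes the acetyltransferase that starts polyamine breakdown. It was higher outside sham males in liver. In 12-week liver Sat1 was 113 FPKM in castrated males, 118 FPKM in sham females and 78.5 FPKM in sham males. In castrated males it rose by 0.52, with an adjusted p of 0.0212 in the authors' deposited table. At 18 months liver Sat1 was 70.0 in castrated males, 86.8 in sham females and 45.6 in sham males. The sex log2 fold of 0.71 had an implied SE of 0.23 and an adjusted p of 0.0269 in the authors' DESeq2 table. The castration log2 fold of 0.47 had an implied SE of 0.17 and an adjusted p of 0.163 in that DESeq2 table, so it was not called.
Summed leukocyte markers followed the same order in liver. Of 7 markers, 4 to 6 had a mean of at least 1 in the 12-week liver groups and 6 or 7 in the 18-month ones, and none was at the smallest value of 0.01. Their sum was 72.3 FPKM in castrated males, 108 in sham females and 46.6 in sham males at 12 weeks. At 18 months it was 196 in castrated males, 551 in sham females and 93.0 in sham males, mostly from Cd74 and Lyz2, at 293 and 222 in sham females. Cd79a left this order at both ages and was highest in castrated males, at 5.49 beside 2.07 in sham females at 18 months. Markers of endothelium and stroma, 5 of 5 at a mean of at least 1, also had their lowest sum in sham males. They summed to 30.9 FPKM in castrated males, 25.1 in sham females and 22.3 in sham males at 12 weeks. Col3a1 was an exception there, at 10.8 FPKM in sham females and 10.9 in sham males. At 18 months the 5 markers summed to 20.9 in castrated males, 66.1 in sham females and 15.3 in sham males. The part of both marker groups in the liver Sat1 differences was not tested.
Arms lay closer together for Sat1 in kidney. At 12 weeks it was 282 FPKM in castrated males, 319 in sham females and 338 in sham males, the highest of the 10 genes per length in each of these groups. At 18 months it was 219 in castrated males, 273 in sham females and 254 in sham males. The 18-month castration fold was -0.33 with an implied SE of 0.11 and an adjusted p of 0.0137 in the authors' DESeq2 table. Leukocyte markers there summed to 696 in castrated males, 423 in sham females and 433 in sham males, of which Cd74 gave 594, 355 and 357. The part of these markers was not tested.

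Smox encodes spermine oxidase, which turns spermine back into spermidine, and Paox oxidises acetylated polyamines in peroxisomes. Neither was called in any listed comparison. At 12 weeks both are listed for castrated males against females alone, in both tissues, so castration and sex have no test there. Smox in 12-week kidney was 4.34 FPKM in castrated males, 6.50 in sham females and 5.26 in sham males. In 18-month liver Smox was 2.83 in castrated males, 3.25 in sham females and 1.65 in sham males. Its liver sex log2 fold of 0.75 had an implied SE of 0.33 and an adjusted p of 0.135 in the authors' DESeq2 table.
Paox was a liver-rich gene of the set, at 27.2 FPKM in castrated males, 27.9 in sham females and 24.7 in sham males at 12 weeks. In 12-week kidney it was 4.46 FPKM in castrated males, 5.39 in sham females and 3.66 in sham males. The 18-month kidney sex log2 fold of Paox was 0.35 with an implied SE of 0.17 and an adjusted p of 0.151 in the authors' DESeq2 table.

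**Figure D2:**
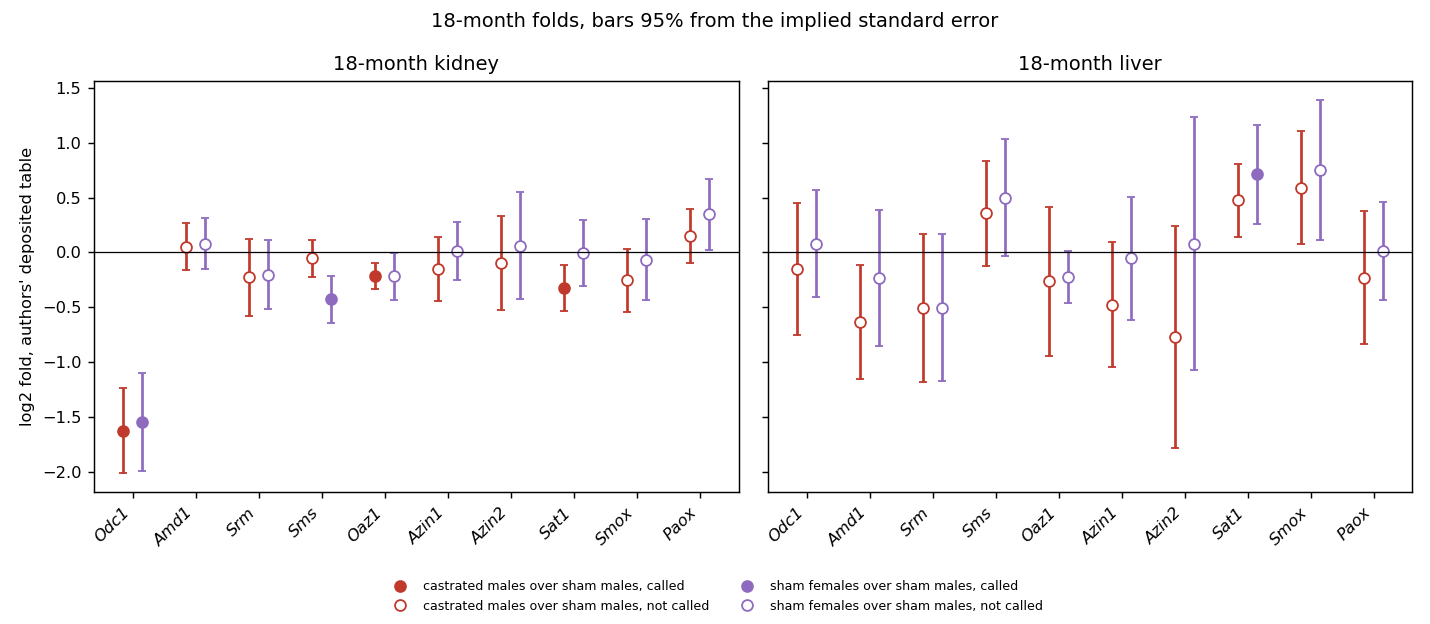
The authors' 18-month DESeq2 log2 folds of the 10 genes, castrated males over sham males and sham females over sham males, in kidney and liver. Bars are 95% intervals from the implied standard error and filled points are called. Odc1 in kidney lies at -1.62 and -1.55, and the other kidney folds lie between -0.42 and 0.35.

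Counts of called genes stand beside the share called among all genes tested. In 12-week kidney, castration had 1 of 2 listed genes called, Odc1, which was lower, where 48.6% of all listed genes were called. In females against sham males 3 of 3 listed were called, all lower, where 81.4% were called. Castrated males against females had 0 of 5 called, where 5.14% were, and 1 of the 5, Smox, had an unadjusted p under 0.05 in the authors' deposited table. The share called among listed genes is thus itself high for castration and sex.
In 12-week liver, castration had 4 of 6 listed genes called, Azin2 and Sat1 higher and Amd1 and Oaz1 lower, where 24.9% were called. No member is listed for sex in 12-week liver, where 100% of listed genes were called. Castrated males against females had 0 of 4 called, where 4.71% were, and 0 had an unadjusted p under 0.05 in the authors' deposited table.
In 18-month kidney, castration had 3 of 10 called, Odc1, Oaz1 and Sat1, all lower, where 22.7% of genes were called. In females 2 of 10 were called, Odc1 and Sms, both lower, where 16.8% were called. Castrated males against females had 1 of 10 called, Sms, which was higher, where 7.14% were called. These counts are near the share over all genes.
In 18-month liver, DESeq2 called 0 of 10 for castration, where 2.09% were called, and 3 had an unadjusted p under 0.05. In females 1 of 10 was called, Sat1, which was higher, where 9.78% were called. Castrated males against females had 0 of 10 called by DESeq2, where 1.13% were, and 1 had an unadjusted p under 0.05.
By size alone, with no test, Odc1 and Oaz1 were the only ones of the 10 genes to reach a 2-fold difference of means + 1. In 12-week kidney both did so for castration, where 6.5% of all genes did, and for sex, where 10.2% did. In 18-month kidney Odc1 alone reached it for castration, where 2.55% of genes did, and for sex, where 3.97% did. None reached it between castrated males and females in kidney, where 1.02% of genes did at 12 weeks and 1.82% at 18 months. In liver none reached it, where 5.01% of genes did for castration, 5.26% for sex and 1.02% between castrated males and females at 12 weeks, and 3.23%, 6.66% and 2.23% in that order at 18 months.
The median difference of the 10 genes for castration in 12-week kidney was -0.27, beside 0.01 for the median of all genes. For sex there it was -0.31, beside -0.01. In 12-week liver the 10 genes had a median of 0.12 for castration and 0.21 for sex, beside -0.02 for all such genes in both. At 18 months the kidney medians were -0.02 for castration, beside 0.13, and 0.08 for sex, beside 0.11, and the liver medians were -0.08, beside 0.12, and 0.19, beside 0.14.

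**Figure D3:**
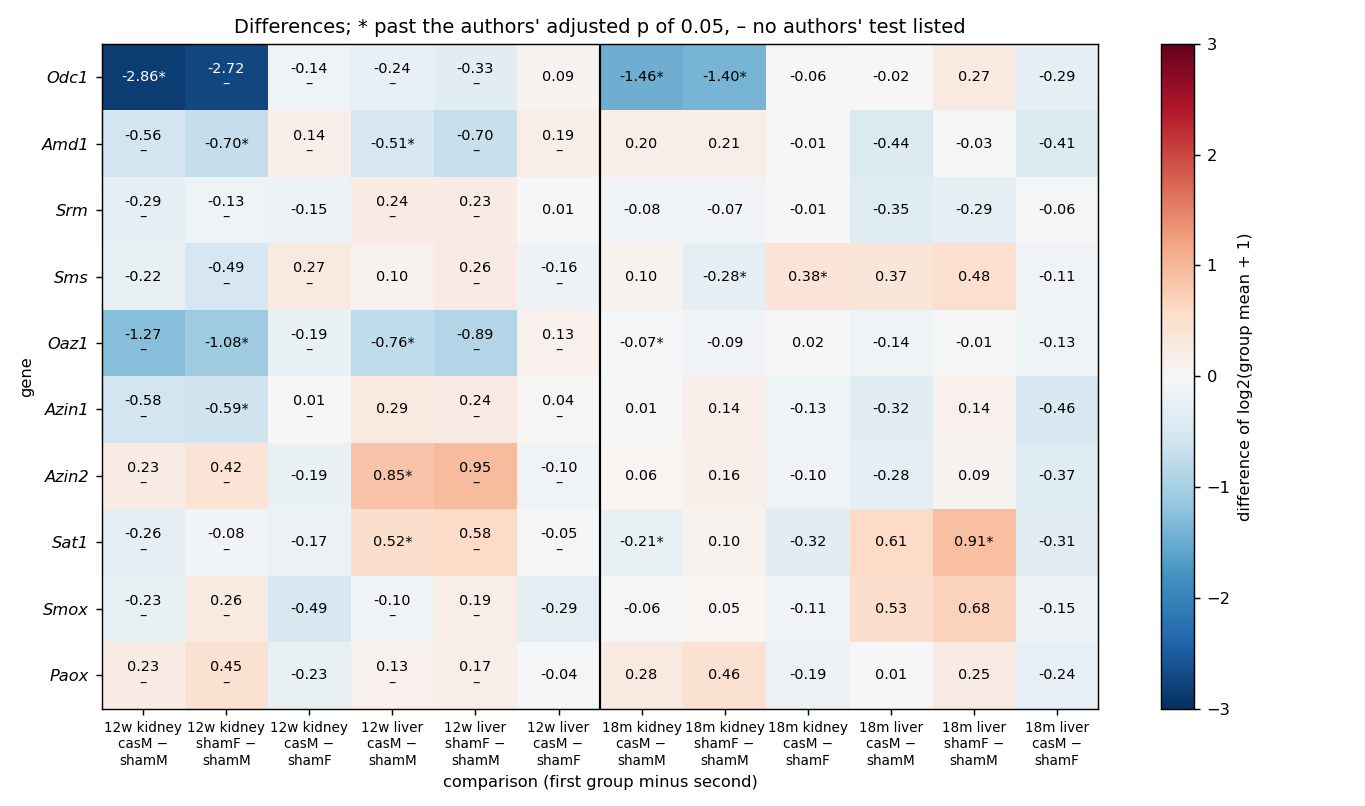
Differences of log2(mean + 1) for the 10 genes in each age, tissue and comparison, as colour, with called values marked. Kidney Odc1 at -2.86 and -2.72 at 12 weeks and -1.46 and -1.40 at 18 months is lower in castrated males and in females than in sham males.

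The 5 genes whose pattern was most like that of Odc1 were found by Euclidean distance over the 12 group means, each centred within its age and tissue, among 8821 genes. They were Amacr at a distance of 0.52, C1qtnf3 at 0.57, Hsd17b11 at 0.66, Cckar at 0.68 and Cndp2 at 0.69, where the median gene was at 2.61. Amacr encodes a racemase of branched-chain fatty acids. Its 12-week kidney mean was 26.2 FPKM in castrated males, 20.4 in sham females and 133 in sham males, and its 18-month kidney mean was 77.5 in castrated males, 67.3 in sham females and 208 in sham males. Cndp2, a cytosolic dipeptidase, was 110.4 FPKM in castrated males, 93.0 in sham females and 755 in sham males in 12-week kidney. Cckar, a cholecystokinin receptor, was 4.89 FPKM in castrated males, 5.47 in sham females and 25.1 in sham males there. The 5 genes were picked for closeness on these same 12 group means. Their likeness of pattern is therefore built in and describes these groups only.

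**Figure D4:**
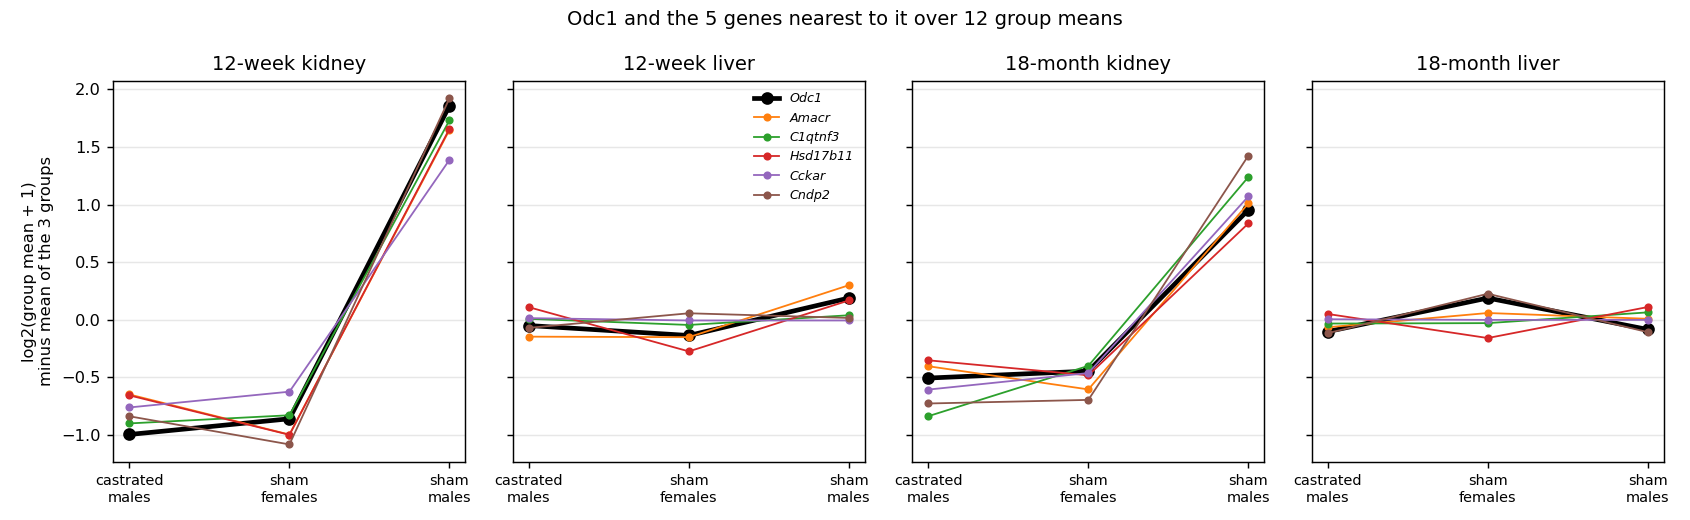
Kidney and liver patterns of Odc1 and its 5 most alike genes, as log2(group mean + 1) minus the mean of the 3 groups, by age. Sham males sit highest in both kidney panels for all 6 genes.

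Around these 10 genes, 46 other genes of polyamine supply, degradation, hypusination, transport and transcription were counted, all of them measured. In 12-week kidney, castration had 4 called higher and 8 called lower of 17 listed, and females had 1 higher and 5 lower of 11 listed, beside the 48.6% and 81.4% of all listed genes called in these comparisons. The 12-week liver had 5 higher and 10 lower of 27 listed after castration, beside 24.9% of all listed genes, and 2 higher and 2 lower of 4 listed for sex, beside 100%. At an adjusted p under 0.01 the 12-week liver counts were 8 in place of 15 for castration and 2 in place of 4 for sex. In 18-month kidney, castration had 9 called higher and 13 called lower of 46, and sex had 7 higher and 14 lower, beside 22.7% and 16.8% of all genes called. Castrated males against females had 5 higher and 1 lower of 18 listed in 12-week kidney, beside 5.14%, and 5 higher and 3 lower of 46 in 18-month kidney, beside 7.14%. The first of these counts was 3 in place of 6 at an adjusted p under 0.01. The 18-month liver had 2 higher and 1 lower of 45 after castration, beside 2.09%, and 4 higher and 6 lower for sex, beside 9.78%.
Proteasome subunits, which carry out degradation of ornithine decarboxylase, were called lower in kidneys of castrated males: 4 of 4 listed at 12 weeks, beside 48.6% of all listed genes called, and 5 of 5 at 18 months, beside 22.7% of all genes. In female kidneys at 18 months Psmb5, Psmd1, Psmd4 and Psma1 were called lower than in sham males too, beside 16.8% of all genes. For sex in 12-week kidney Psmd4 alone of these subunits is listed, and it was not called. In liver Psmb5, Psmd1, Psmd4 and Psma1 were called lower after castration at 12 weeks, beside 24.9% of all listed genes called. For castration at 18 months 0 of 5 were called in liver by the authors' DESeq2 table, beside 2.09% of all genes, and 0 had an unadjusted p under 0.05. For sex in 18-month liver, Psmb5 and Psmd4 were called lower in females, beside 9.78% of all genes. Psmd1, a subunit of the regulatory cap, was 13.7 FPKM in castrated males, 13.6 FPKM in sham females and 32.3 FPKM in sham males in 12-week kidney. At 18 months it was 37.0 in castrated males and 49.7 in sham males, a fold of -0.58 with an implied SE of 0.08 in the authors' DESeq2 table.
Of 9 genes of precursor supply, 2 rose and 1 fell with castration in 18-month kidney, a share near the 22.7% of all genes called. Arg2, the mitochondrial arginase, which yields ornithine, was 14.1 in castrated males, 49.3 in sham females and 2.81 in sham males. Oat, ornithine aminotransferase, which consumes ornithine, was 327 in castrated males, 362 in sham females and 100.6 in sham males. Both rose in castrated males and in females, with log2 folds of 2.19 and 1.56 after castration, at implied SEs of 0.26 and 0.12 in the authors' DESeq2 table.
Transport and transcription genes were mixed. Slc22a2, an organic cation transporter, was 97.5 in castrated males, 109 in sham females and 196 in sham males in 18-month kidney, a castration fold of -1.16 with an implied SE of 0.10 in the authors' DESeq2 table. Myc, whose protein is a known activator of Odc1 transcription, rose with castration in 12-week kidney, at 5.40 FPKM in castrated males and 2.21 FPKM in sham males. In 18-month kidney Myc was 6.97 in castrated males and 2.89 in sham males, a log2 fold of 1.14 with an implied SE of 0.27 in the same DESeq2 table. Eif5a, the protein that carries hypusine, made from spermidine, was 127 FPKM in sham females and 304 FPKM in sham males in 12-week kidney, a called fall.

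Polyamine names were rare in the metabolite tables. Spermidine itself appeared in 12-week serum alone, among 1495 compounds, with a relative abundance of 2.16e-06 in castrated males, 1.93e-06 in sham females and 2.71e-06 in sham males. Its log2 ratio to sham males was -0.33 in castrated males and -0.49 in females, at the 24.3 and 19.3 percentiles of all compounds there. No spread or test is given for metabolites, so these ratios are descriptions.
Conjugates of putrescine and spermidine gave the remaining names. Feruloyl-2-hydroxyputrescine in 12-week serum was 1.75e-07 in castrated males, 7.29e-08 in sham females and 2.59e-06 in sham males. N1,N10-diferuloylspermidine there was 1.3e-06 in castrated males, 1.09e-06 in sham females and 1.45e-06 in sham males. Both compounds had their highest mean in sham males. Sinapoylputrescine there was 1.37e-06 in castrated males, 4.96e-07 in sham females and 1.27e-06 in sham males. In 18-month kidney, among 985 compounds, 4-coumaroyl-2-hydroxyputrescine was 0.0284 in castrated males, 0.0301 in sham females and 0.0194 in sham males. Such conjugates are known from plants, and the names rest on fragment spectra.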

How the data were processed

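RNA of kidney and liver was measured in 46 libraries, and metabolites in kidney, liver and serum. FPKM at 12 weeks were deposited by the authors as group means, per the labels; 0.01 is the smallest value. At 18 months the authors deposited group means of a normalised signal whose unit is not named, and log2 folds, p-values and adjusted p-values from their DESeq2 tests, per the file headers. The deposited 12-week comparison tables hold a test score, p-values and adjusted p-values in the layout of Cuffdiff. Metabolite tables hold mean relative abundances per group, as deposited. HISAT2, SAMtools and Cufflinks are named in the submitters' processing notes, with build mm10; no version is given in the sources used here. Depth per library is unknown, and the labels do not say whether libraries come from separate animals, so the authors' p-values may measure technical spread only.

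The planned tests per library were not possible on group means, so the authors' tests were used, at an adjusted p under 0.05. The authors' 18-month folds run in the other direction and were turned round; every gene that differed at least 2-fold between means then had the same sign (207 of 207 for kidney castration). Differences are log2(mean + 1), and the added 1 understates folds of low genes. The implied SE is the size of the log2 fold over the normal quantile that matches its p. Promoters come from RefSeq (GRCm38.p6), with 7 of the 10 genes matched; gene positions come from GENCODE vM21. Scripts were tested on simulated data. The 10 genes were named in every comparison, other genes came from fixed lists, and the 5 genes most like Odc1 by a distance rule. Members and lists were chosen with earlier results of these data known. Python 3.11.15, pandas 2.3.3, numpy 2.4.6 and scipy 1.17.1 were used. Alternatives were a stricter adjusted p, a 2-fold limit, a minimum mean of 5, a pseudocount of 0.1, centring on the median gene and the authors' folds.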

Additional observations from a re-analysis of the deposited data

How the results depend on the processing

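No paired analysis was possible because the deposited columns are group means that carry no replicate numbers. For the same reason leaving out each replicate, a replicate block, and limma or edgeR on values per library were not run. Every one of the 15 called differences kept its direction when centred on the median gene. Under the authors' folds 7 of 7 called 18-month differences kept theirs. A pseudocount of 0.1 cannot change a direction, so that setting bears on size alone. Sat1 for kidney castration at 18 months was -0.21 by means and -0.34 centred, and Oaz1 was -0.07 by means and -0.19 centred. At an adjusted p under 0.01, 0 genes were called for sex in 18-month liver, in place of 1 (Sat1). The other calls of Sat1 ended there too, which left 3 in place of 4 for castration in 12-week liver and 2 in place of 3 in 18-month kidney. A minimum mean of 5 ended the Azin2 call, leaving 3 in place of 4 in 12-week liver, and a pseudocount of 0.1 gave Azin2 1.43 in place of 0.85. A 2-fold limit with no test took 2 in place of 1 for castration in 12-week kidney (Odc1 and the unlisted Oaz1), 0 in place of 4 in 12-week liver, and 1 in place of 3 in 18-month kidney. It took 1 in place of 2 for sex in 18-month kidney, 0 in place of 1 for castrated males against females there, and 0 in place of 1 for sex in 18-month liver. Differences that changed sign were all uncalled. Centred, they were Sms -0.024, Azin1 -0.12 and Azin2 -0.065 for kidney castration at 18 months, Sat1 -0.0038 and Smox -0.057 for kidney sex, Paox -0.11 for liver castration, and Azin1 -0.0022 and Azin2 -0.051 for liver sex. By the authors' folds they were Sms -0.053, Azin1 -0.15 and Azin2 -0.097 for kidney castration, Sat1 -0.0011 and Smox -0.067 for kidney sex, Paox -0.23 for liver castration, Azin1 -0.054 for liver sex, and Srm 0.0018 for castrated males against females in liver. The cause was not tested.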
